A study of Rattus norvegicus with 7 samples.

Results

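The actin linkers described here were 4 of the 6240 cDNA clones on the array, chosen by name: moesin (clone RGIAC38), ezrin (RNABM92), acidic calponin (RGIAN83) and tropomyosin isoform 2 (MKAH43). Their gene names came only from the authors' lists of clones regulated on these same arrays, so an increase in them is not independent evidence of direction. Male Sprague Dawley rats received a cerebral cortical contusion by weight drop onto the exposed dura, and the ipsilateral cortex, holding the injury and the tissue around it, was compared with the uninjured contralateral cortex of the same animal. The arrays covered 1 day post injury (dpi, 3 animals) and 4 dpi (4 animals), with 1 array per animal. Dyes were swapped between animals: the injured side was labelled with Cy3 on replicate 3 of 1 dpi and on replicates 1 and 4 of 4 dpi, and with Cy5 elsewhere. No array of a sham-operated animal was analysed here, so every value is a ratio of the sides of 1 injured brain. All values are log2 ratios of injured to uninjured cortex, in which 0 is an equal level on both sides. In bulk cortex, more cells of a type and more RNA per cell cannot be told apart.

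Moesin and ezrin belong to the ezrin, radixin and moesin (ERM) family. An ERM protein binds the cytoplasmic tail of membrane proteins such as CD44 and ICAM-1 through its amino-terminal FERM domain, and holds actin filaments with its carboxy-terminal end, so that the membrane is tied to the cortical cytoskeleton in microvilli, ruffles and migrating cells. Acidic calponin, also called calponin 3, binds along actin filaments and is found in non-muscle cells, including those of the brain. Tropomyosins are coiled-coil proteins that lie along the filament and set which motors and severing proteins reach it.

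Upstream sequence is shown for the 3 members whose name gave 1 gene in RefSeq, so that letters shared between their promoters can be read beside their values. Each line holds the 250 bases before the gene start on the gene's own strand in the rat GRCr8 build, from RefSeq. Capitals mark CACGTG (the E-box of Myc type), GGGCGG or its reverse complement CCGCCC (the Sp1 box), and CCAAT or its reverse complement ATTGG (the CCAAT box).
Msn (moesin), chrX:65005296-65005545, plus strand: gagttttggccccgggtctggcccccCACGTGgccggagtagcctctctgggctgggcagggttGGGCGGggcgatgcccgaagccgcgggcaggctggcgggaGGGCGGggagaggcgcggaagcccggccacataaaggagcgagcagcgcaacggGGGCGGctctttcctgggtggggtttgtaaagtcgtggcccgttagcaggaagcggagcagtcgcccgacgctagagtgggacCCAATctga
Ezr (ezrin), chr1:49416574-49416823, minus strand: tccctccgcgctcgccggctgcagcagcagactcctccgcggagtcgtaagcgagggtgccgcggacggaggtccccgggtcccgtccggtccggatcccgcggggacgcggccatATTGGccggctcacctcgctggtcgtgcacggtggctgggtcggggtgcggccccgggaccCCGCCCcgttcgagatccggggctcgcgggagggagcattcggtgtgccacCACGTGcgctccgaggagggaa
Cnn3 (acidic calponin), chr2:212203411-212203660, plus strand: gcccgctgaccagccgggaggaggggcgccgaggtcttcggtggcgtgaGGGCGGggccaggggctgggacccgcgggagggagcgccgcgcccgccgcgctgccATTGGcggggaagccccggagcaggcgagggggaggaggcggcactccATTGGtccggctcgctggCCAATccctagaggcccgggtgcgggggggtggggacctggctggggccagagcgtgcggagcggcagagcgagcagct

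The windows lie directly outside the annotated genes, which span chrX:65005546-65073512 for Msn, chr1:49373033-49416573 for Ezr and chr2:212203661-212234772 for Cnn3. Both ERM genes had 1 CACGTG, which began 224 bases before the start in Msn and 22 bases before it in Ezr, and Cnn3 had none. Among 33469 RefSeq windows of the same length, 5.59% held this motif on either strand. The Sp1 box was found 3 times in Msn and 1 time each in Ezr and Cnn3, and is present in 30.5% of all windows. The CCAAT box was found 1 time each in Msn and Ezr and 3 times in Cnn3, against 34.0% of windows with at least 1 match. An NF-kappaB site was matched in Ezr and in Cnn3 and in 6.325% of all windows. The serum response factor CArG box, the AP-1 site TGANTCA, the STAT site TTCNNNGAA and the TATA box TATAAA had no match in the 3 windows, and 1.497%, 6.34%, 7.67% and 12.9% of all windows held them. A match describes the letters only. The gene of tropomyosin isoform 2 was not assigned, and no sequence is shown for it.

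Every value measured for the 4 linkers lay above 0, which was 26 of 26 values out of 28 possible. At 1 dpi all 4 were called upregulated, by 1.78-fold to 3.30-fold on average. Here upregulated means a mean log2 ratio above 0.7 with an adjusted p of 0.02 or less by limma with Benjamini-Hochberg adjustment over all features tested. Of all features tested at 1 dpi, 3.9% (193 of 4952) were called upregulated, and 28.3% had all their values above 0 (20.7% at 4 dpi). At 4 dpi 1 of the 3 linkers tested, moesin, was called upregulated, against 2.63% (84 of 3191) of all features tested. All 3 passed the adjusted p alone, as did 4.73% of all features in the upward direction, and each of the 3 missed it when some 1 array was left out. None of the 3 linkers tested differed between the time points at an adjusted p of 0.05, and the difference of tropomyosin isoform 2 was not tested. Of all features tested, 1.51% (48 of 3188) were called lower at 4 dpi and 3.48% were called higher, 4.99% in all.

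**Figure D1:**
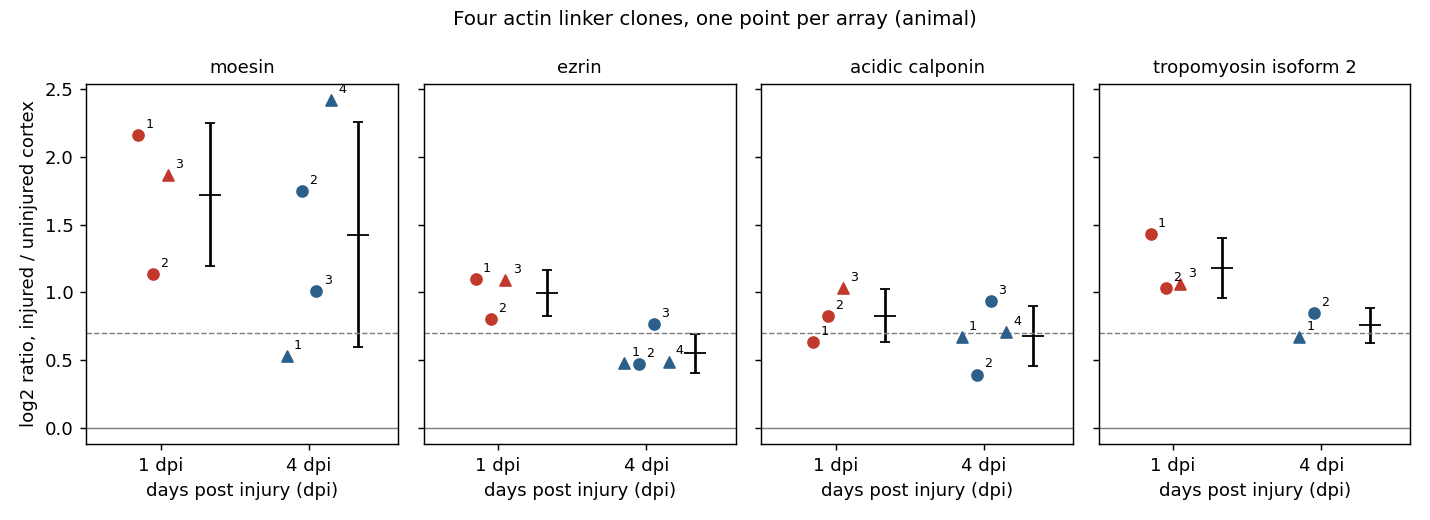
Log2 ratio of injured to uninjured cortex (vertical axis) of the 4 actin linker clones at 1 dpi (red) and 4 dpi (blue), with 1 numbered point per array; circles are arrays with ipsilateral RNA in Cy5 and triangles in Cy3. Black bars give mean ± SD and the dashed line the limit of 0.7. All points lie above 0, moesin spreads from 0.53 to 2.42 at 4 dpi, and ezrin and tropomyosin isoform 2 have no overlap between time points.

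Moesin had the highest mean of the 4 at both time points and also the widest spread. At 1 dpi its log2 ratios were 2.16, 1.13 and 1.87 on replicates 1, 2 and 3. At 4 dpi they were 0.53, 1.75, 1.01 and 2.42 on replicates 1 to 4. The 4 dpi values thus ran from below the lowest to above the highest value of 1 dpi, and the groups overlapped. The mean was 1.72 ± 0.53 (SD, n = 3) at 1 dpi, 3.30-fold, with an adjusted p of 0.00018201 (limma). At 4 dpi it was 1.43 ± 0.83 (SD, n = 4), 2.69-fold, with an adjusted p of 0.0078001 (limma). The call at 4 dpi was lost without replicate 2 (adjusted p = 0.033858) and without replicate 3 (adjusted p = 0.033992). It was also lost with robust eBayes (limma, adjusted p = 0.045269) and where 0.7 was required on every array. The difference, 4 dpi minus 1 dpi, was -0.30 with a 95% interval from -1.10 to 0.51 (limma, adjusted p = 0.70892), and it was 0.0034 without 4 dpi replicate 1, -0.07 without 1 dpi replicate 1, -0.59 without 1 dpi replicate 2 and -0.63 without 4 dpi replicate 4. With the arrays scaled to the same spread it was -0.08. Among all features with a value on an array, moesin ranked between position 11 and position 221 from the highest.

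Ezrin, the ERM protein known best from epithelial microvilli, was called upregulated at 1 dpi and stayed under the limit of 0.7 at 4 dpi. Its log2 ratios were 1.10, 0.80 and 1.09 at 1 dpi. At 4 dpi they were 0.48, 0.47, 0.76 and 0.49. All 1 dpi values lay above all 4 dpi values, a pattern held by 9.07% of the features tested at both times, and at 4 dpi replicate 3 stood above the other arrays, which lay close together. The mean was 1.00 ± 0.17 (SD, n = 3) at 1 dpi, with an adjusted p of 0.0005983 (limma). At 4 dpi the mean was 0.55 ± 0.14 (SD, n = 4), 1.46-fold, and its adjusted p of 0.0060738 (limma) passed the threshold although the size did not. It missed the threshold without replicate 2, 3 or 4, at 0.02276, 0.025716 and 0.029189. The difference was -0.45 with a 95% interval from -0.75 to -0.14, and its adjusted p of 0.095039 over 3188 features (limma) missed the threshold. With arrays weighted by their quality the adjusted p was 0.033906, with arrays scaled to the same spread it was 0.13817, with the replicate number as a block 0.2616, and with 1 array left out it lay between 0.073649 and 0.29668.

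Acidic calponin gave the smallest mean of the linkers at 1 dpi. Its log2 ratios were 0.63, 0.82 and 1.03 at 1 dpi. At 4 dpi they were 0.67, 0.39, 0.93 and 0.71. The groups overlapped, and the 4 dpi values lay on both sides of the limit. The mean was 0.83 ± 0.20 (SD, n = 3) at 1 dpi, 1.78-fold, with an adjusted p of 0.0019834 (limma). That call was lost where 0.7 was required on every array. At 4 dpi it was 0.68 ± 0.22 (SD, n = 4), 1.597-fold, with an adjusted p of 0.0040618 (limma), which passed the threshold while the mean stayed just under 0.7. Without 4 dpi replicate 2 the mean was 0.77 and the clone was called, while without replicate 3 or 4 its adjusted p was 0.022719 or 0.024168 and missed the threshold. The difference was -0.15 with a 95% interval from -0.50 to 0.19 (limma, adjusted p = 0.64644). It ran from -0.25 without 1 dpi replicate 1 to -0.05 without 1 dpi replicate 3, and was -0.09 with the arrays scaled to the same spread.

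Tropomyosin isoform 2 was second to moesin at 1 dpi and was measured on only 2 arrays at 4 dpi. Its log2 ratios were 1.43, 1.03 and 1.06 at 1 dpi. At 4 dpi they were 0.67 and 0.85 on replicates 1 and 2, and replicates 3 and 4 gave no value. All 3 values of 1 dpi lay above both values of 4 dpi, as in 9.11% of the features with 3 values at 1 dpi and at least 2 at 4 dpi. The mean was 1.18 ± 0.22 (SD, n = 3) at 1 dpi, 2.26-fold, with an adjusted p of 0.00028072 (limma). At 4 dpi the mean was 0.76 ± 0.13 (SD, n = 2), 1.69-fold, and was not tested because a feature needed 3 arrays. With 2 arrays allowed it was called (limma, adjusted p = 0.018706), but not when replicate 3 or 4 was left out of that fit of all features. Replicates 3 and 4 of 4 dpi had values for 2332 and 3270 features, against 4133 to 5082 on the other 4 dpi arrays.

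**Figure D2:**
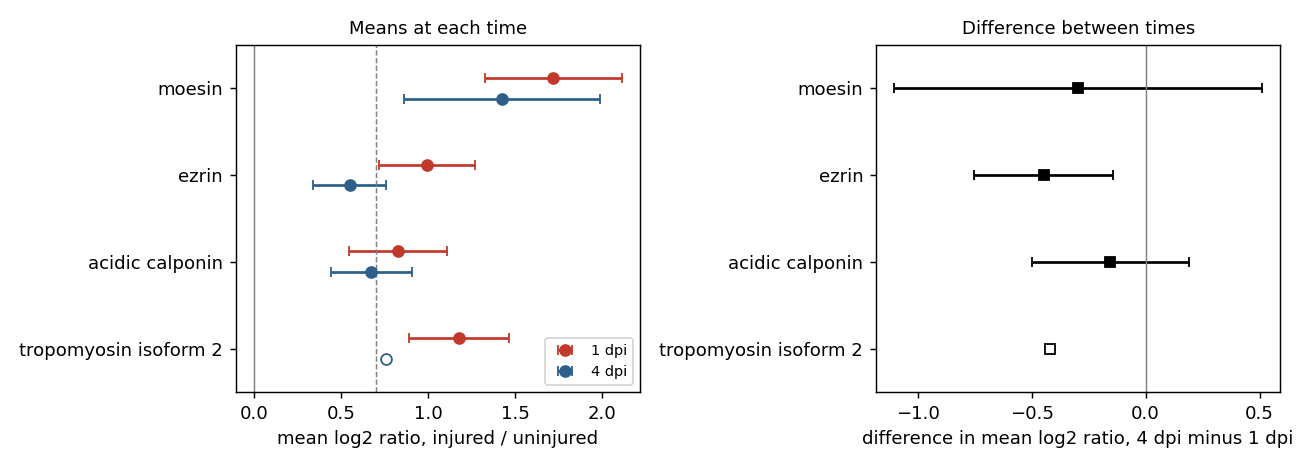
Left, mean log2 ratio of each linker at 1 dpi (red) and 4 dpi (blue) with 95% intervals from limma and the limit of 0.7 dashed; right, the difference in mean log2 ratio, 4 dpi minus 1 dpi, with its 95% interval. Open symbols are means of tropomyosin isoform 2 that were not tested. The interval of ezrin alone lies below 0 on the right, and its adjusted p was 0.095039.

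The order of the mean log2 ratios at 1 dpi was moesin, tropomyosin isoform 2, ezrin and acidic calponin. The members were compared within arrays over both time points by a two-sided exact permutation test of sign flips, adjusted over the 6 pairs. Separate cDNA clones can compress ratios differently, so these are differences between clones. Moesin exceeded ezrin on 7 of 7 arrays, by 0.81 ± 0.67 (SD), with an exact p of 0.01562, the smallest that 7 arrays allow, and an adjusted p of 0.09375. It exceeded acidic calponin on 6 of 7 arrays, by 0.81 ± 0.74 (exact p = 0.04688, adjusted p = 0.1406), and tropomyosin isoform 2 on 4 of 5 arrays, by 0.48 ± 0.47 (exact p = 0.1875, adjusted p = 0.225). Ezrin minus acidic calponin was -0.00026 ± 0.24, with ezrin higher on 3 of 7 arrays (exact p = 1). None of the 6 pairs passed an adjusted p of 0.05, 2 had an unadjusted p under 0.05, and with 5 arrays no p below 0.0625 was possible. No pair of neighbours in the order was therefore shown to differ, and those with tropomyosin isoform 2, on 5 arrays, could not have been.

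At 4 dpi moesin was lowest on replicate 1, and ezrin and acidic calponin were lowest on replicate 2. On replicate 1 moesin was 0.53, while ezrin was 0.48 and acidic calponin 0.67, so the 3 clones lay close together there. On replicate 4 moesin reached 2.42 beside 0.49 for ezrin and 0.71 for acidic calponin. Both arrays had ipsilateral RNA in Cy3. Of 68 other features called upregulated at 4 dpi with values on all 4 arrays, 35 were lowest on replicate 1 and 22 on replicate 2. Over the other features called upregulated at 4 dpi with a value on the array in question (82, 83, 71 and 81 features), the medians on replicates 1 to 4 were 0.861, 0.945, 1.20 and 1.08. By dye, the moesin mean at 4 dpi was 1.47 over the Cy3 arrays and 1.38 over the Cy5 arrays, and with a dye term all 4 linkers were still called at 1 dpi and moesin at 4 dpi.

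Named clones most like each linker were found by the smallest root mean square (RMS) difference in log2 ratio over shared arrays, among 193 named clones. For moesin these were a chloride channel ABP clone (RMS 0.342 over 6 arrays), FYN binding protein (0.436 over 7 arrays) and annexin II (0.449 over 7 arrays). On 4 dpi replicate 1 these 3 clones were at 0.29, 0.47 and 0.34. That array entered the measure by which they were chosen, so their low values beside that of moesin are no separate finding. Ezrin was nearest to interleukin-1 receptor accessory protein (0.153 over 5 arrays), carboxypeptidase D (0.201 over 7 arrays) and PAK-interacting exchange factor beta2 (0.203 over 5 arrays). Acidic calponin was nearest to a neuron specific gene family member (0.234 over 7 arrays), the cholecystokinin precursor (0.262 over 7 arrays) and PAK-interacting exchange factor beta2 (0.268 over 5 arrays). Near to tropomyosin isoform 2 were epidermal fatty acid binding protein 5 (0.292) and an expressed sequence tag for Tax1 (0.303), each over 5 arrays. Between the linkers, ezrin and acidic calponin were the closest pair at 0.220 over 7 arrays, and moesin and acidic calponin the farthest at 1.06.

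**Figure D3:**
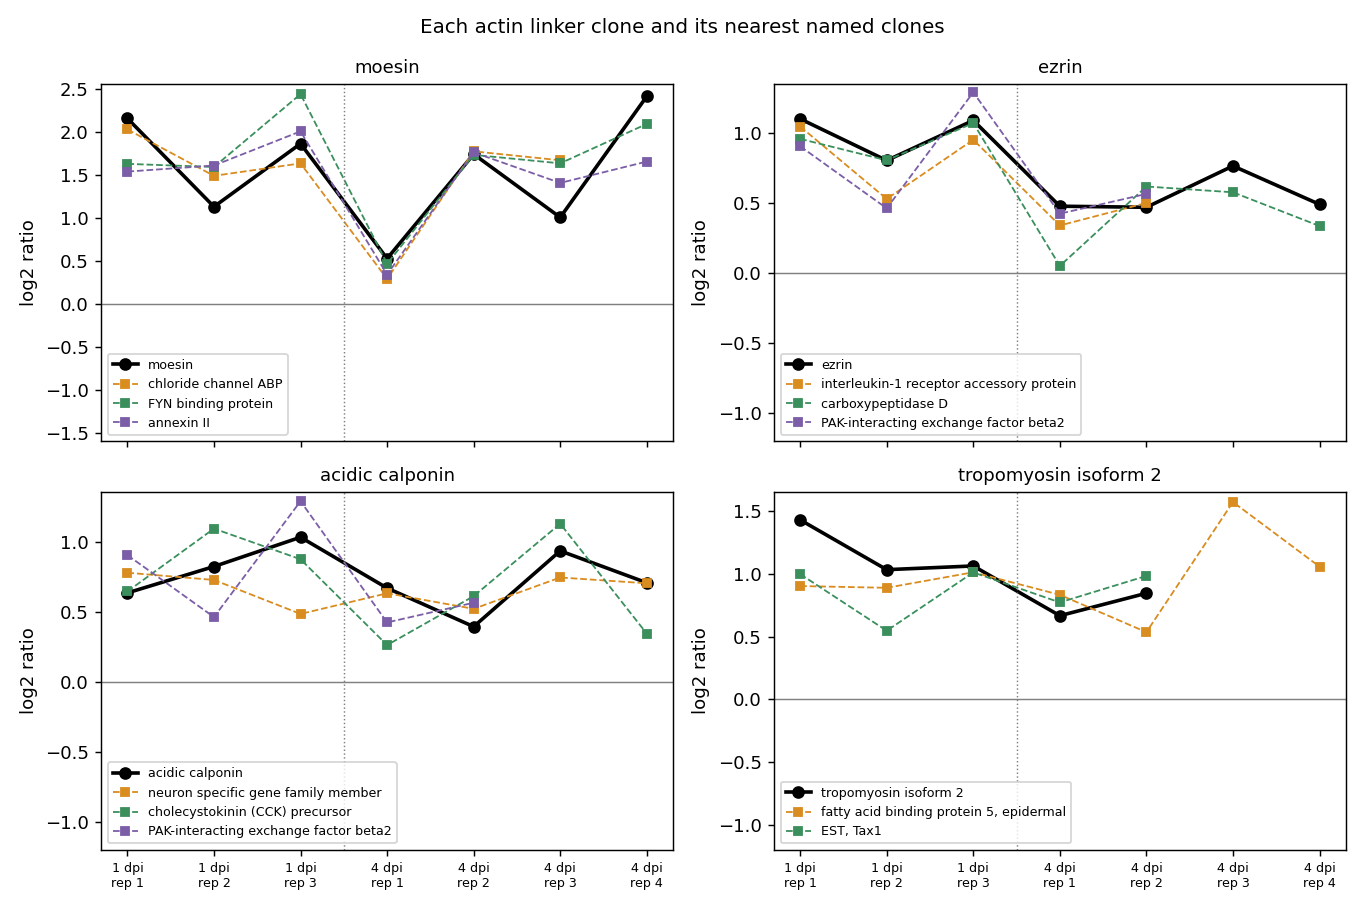
Log2 ratio (vertical axis) on each of the 7 arrays for each linker (black) and named clones near to it by RMS difference (coloured, dashed; 3 each, and 2 for tropomyosin isoform 2); a missing point is an array with no value, and the dotted line separates time points. On 4 dpi replicate 1, which entered the choice of neighbours, moesin was 0.53 and annexin II 0.34.

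Other clones of membrane and cytoskeleton linkage were taken as a list of 14, also named only through the authors' regulated clones. Their counts of calls and their medians are therefore no independent evidence. The values over all features stand beside them for scale and are no test of the list. Of these, 12 of 14 were called upregulated at 1 dpi (limma), beside 3.9% of all features tested, and 0 downregulated, beside 1.51% (75 of 4952). The median was 1.20 beside 0.0087 over all features tested. At 4 dpi 6 of 8 tested were upregulated, beside 2.63% of all features tested, and 1, the septin CDCrel-1A, was downregulated, beside 0.376% (12 of 3191). The median was 1.23 beside -0.0097. The difference was tested for 8, of which 1 was higher at 4 dpi, beside 3.48% of all features, and 1 lower, beside 1.51%, with a median of -0.30. Over the 3 linkers tested the median was the moesin difference, -0.30, and over all features tested it was 0.0053. Both sets were named through clones regulated on these arrays, so these medians show no shared change between the times.

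Of the membrane receptors in the list, CD44 and ICAM-1 are known to bind ERM proteins through their tails, and all 4 receptors were called upregulated at 1 dpi. The hyaluronan receptor CD44 was 2.80, 2.54 and 3.82 at 1 dpi, a mean of 3.05 with an adjusted p of 1.3075e-05 (limma). At 4 dpi it had 2 values, 0.10 on replicate 1 and 2.42 on replicate 2, and was not tested. CD44 was thus the lower on 4 dpi replicate 1. Among features with values on all 4 arrays of 4 dpi, 5 of 7 clones of the list were lowest there. So were 35 of 68 features other than the linkers that were called upregulated at 4 dpi. The leukocyte adhesion receptor ICAM-1 was 1.08 on both 1 dpi arrays that measured it (limma, adjusted p = 0.0016004), and -0.45 and 1.01 on replicates 1 and 2 of 4 dpi. The heparan sulphate proteoglycan syndecan 1 was 3.49, 2.68 and 2.79 at 1 dpi (limma, adjusted p = 5.4404e-06), and 1.23 and 1.86 on replicates 1 and 2 of 4 dpi. Syndecan 4, a proteoglycan of focal adhesions, was 0.86, 1.34 and 0.75 at 1 dpi, and -0.39, 0.24, 0.56 and -0.08 at 4 dpi. It passed the test of the difference, at -0.90 (limma, adjusted p = 0.034193).

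Other clones of the list act on the filaments or at the membrane. Annexin II, which binds membrane phospholipid and actin, was called at both times, with means of 1.72 ± 0.25 (SD, n = 3) and 1.29 ± 0.65 (SD, n = 4). Mitogen inducible gene-2, a FERM-domain protein of adhesion sites, was 1.22, 0.53 and 1.05 at 1 dpi (limma, adjusted p = 0.0024468) and had 1 value, 0.47, at 4 dpi. Thymosin beta-10, which sequesters actin monomers, had its higher values at 4 dpi. It was 0.09, 0.30 and 0.27 at 1 dpi, not past the test (limma, adjusted p = 0.26194), and 0.80, 0.65, 1.14 and 0.81 at 4 dpi, where it was called upregulated (limma, adjusted p = 0.0010591). Its difference of 0.63 was past the threshold (limma, adjusted p = 0.03076).

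**Figure D4:**
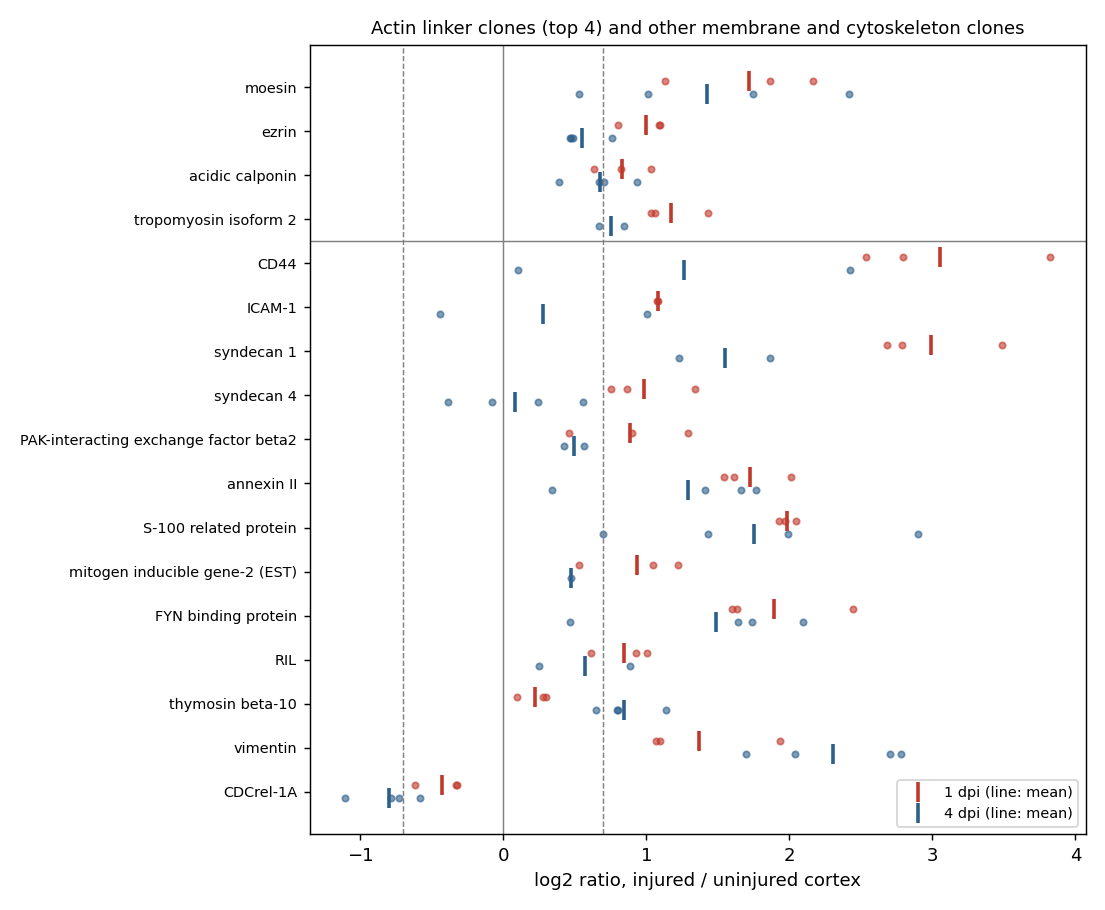
Log2 ratio (horizontal axis) of the 4 linkers (above the grey line) and of other membrane and cytoskeleton clones at 1 dpi (red) and 4 dpi (blue); points are arrays, vertical strokes are means, and dashed lines mark 0.7 and -0.7. CD44 and syndecan 1 lie farthest right at 1 dpi, syndecan 4 moves to near 0 at 4 dpi, and thymosin beta-10 is higher at 4 dpi.

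Markers of 3 kinds of cell that the dissected tissue could hold were read on the same arrays. These clones too are named only through the authors' lists of clones regulated here, so their counts of calls are no independent evidence and are not to be read against all features. The mean of 6 macrophage and microglia clones, taken on each array over those with a value, ran from 0.65 to 0.99 over the arrays of 1 dpi and from 1.18 to 2.12 over those of 4 dpi, and 3 of the 5 tested were called higher at 4 dpi. The mean of 5 fibroblast and vessel clones ran from -0.07 to 0.32 at 1 dpi and from 0.69 to 1.10 at 4 dpi, with 4 of 5 called higher at 4 dpi. The mean of 6 neuron clones lay between -0.28 and 0.14 over all 7 arrays, but its members went opposite ways: at 1 dpi 2 were called upregulated and 2 downregulated, at 4 dpi 1 of 5 tested was called upregulated and 2 downregulated, and 0 of 5 were called different between the times. The mean of the linkers ran from 0.95 to 1.33 at 1 dpi and from 0.59 to 1.20 at 4 dpi. On 4 dpi replicate 1, where moesin was lowest, the macrophage and the fibroblast means were also the lowest of that time point, at 1.18 and 0.69, the latter with matrix Gla protein at -0.46. The part of these cell types in the linker values was not tested.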

How the data were processed

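Total RNA of ipsilateral and contralateral cortex of 7 rats was hybridised on 2-colour cDNA arrays, 1 per animal. The authors subtracted mean local background from mean spot intensity, dropped spots that were under 2 times background, applied Lowess per array in the SMA package and deposited log2 ratios of injured to uninjured cortex, with swapped dyes turned. Spot intensities were not analysed here. Between 2332 and 5208 of 6240 features per array had a value, and precision is limited by how many arrays there are. Across features, arrays of different days correlated at r from 0.421 to 0.642 with the same dye orientation and from 0.0089 to 0.628 with the opposite one, and arrays of the same day from 0.682 to 0.778 and from 0.485 to 0.732 in that order. Also, 0 value columns were without a sample.

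Arrays were grouped by their labels, and each replicate is 1 animal. From the deposited log2 ratios, each feature's mean was tested against 0 at each time by lmFit and eBayes of limma 3.58.1 under R 4.3.3, adjusting by Benjamini-Hochberg over all features. Features needed 2 of 3 arrays at 1 dpi and 3 of 4 at 4 dpi. The call needed a mean beyond 0.7 in either direction with an adjusted p of at most 0.02. The difference between times was fitted over 7 arrays and called at an adjusted p of 0.05. SAM, the test of the methods, was an alternative, with cells filled from the 10 nearest features. Other alternatives changed the limits, filters, normalisation, dye term, weights and replicates. Steps were tested on simulated data. Python 3.11.15, pandas 2.3.3, SciPy 1.17.1 and matplotlib 3.10.9 were used.

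The members, lists and tests were chosen with earlier results of these data known. Clone names came from the authors' lists of regulated clones. Of 253 listed clones, 238 were used, those with a value within 0.2 (log2) of the listed change, and calpain 2 was left out of the cytoskeleton list because its clone failed this check. The text names the 4 members, 7 clones of that list chosen by role, and the 3 named clones nearest to each member over at least 5 arrays, except 1 clone of the list, the nearest to tropomyosin isoform 2, that is counted but not reported here by name or value. Other names in the text were given after their values were seen. Msn, Ezr and Cnn3 were matched by name to RefSeq (GRCr8).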

Additional observations from a re-analysis of the deposited data

Results flagged for a closer look

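At 4 dpi the ezrin value of replicate 3, 0.763, stood apart from the other 3 arrays, since its gap to the nearest array made up 0.929 of the whole range, beyond Dixon's 95% critical value. The mean of the fibroblast and vessel markers on 4 dpi replicate 1, 0.692, stood below the other 3 arrays in the same way, with a gap of 0.917 of the range. Matrix Gla protein was at -0.46 there, and the list's median on that array, 0.998, lay above that of replicate 3, 0.83. Of 11 groups of 4 arrays examined, 2 passed the critical value, which chance alone passes in 5% of groups.

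Syndecan 4 was lower at 4 dpi than at 1 dpi, with a difference in mean log2 ratio of -0.90 (limma, adjusted p = 0.034193). Thymosin beta-10 was higher at 4 dpi, with a difference of 0.63 (limma, adjusted p = 0.03076).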

How the results depend on the processing

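Of 228 linker values recomputed under alternatives, 206 kept their direction and their side of the threshold, or for counts stayed within 1.5 times. Many of these could not have changed sides, so 206 does not measure robustness. They include 7 counts of pairs without 1 array, called linkers under looser limits and uncalled ones under stricter limits. The cause of the other changes was not tested. With a limit of 1 on the mean log2 ratio, 2 linkers were called at 1 dpi, and ezrin (1.00) and acidic calponin (0.83) were not. With 0.7 required on every array, acidic calponin (0.83) lost its call at 1 dpi and moesin (1.43) at 4 dpi, where 0 were left. Robust eBayes also left 0, with moesin at 1.43 and an adjusted p of 0.045269. Without a limit on the mean, 3 were called at 4 dpi, with ezrin at 0.55 and acidic calponin at 0.68, beside 4.73% of all features tested. With at least 2 arrays at 4 dpi, 2 were called, and tropomyosin isoform 2 (0.76) was one of them with an adjusted p of 0.018706, beside 105 of all features, but its adjusted p was 0.023505 without replicate 3 and 0.026149 without replicate 4. The difference of ezrin was called at an adjusted p of 0.1 (-0.45) and with array weights (-0.50), so 1 linker was lower under each. With at least 2 arrays at both times, an alternative chosen after the data were seen, the difference of tropomyosin isoform 2 was -0.42 with an adjusted p of 0.28431.

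When each array was left out in turn, 4 linkers were called at 1 dpi each time, 0 to 1 was called at 4 dpi (0 without replicate 3), and 0 were called lower at 4 dpi. The 4 dpi mean ran from 1.09 to 1.72 for moesin and from 0.59 to 0.77 for acidic calponin, and the moesin difference from -0.63 to 0.0034 (without 4 dpi replicate 1).

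Replicates with the same number did not deviate together (r = -0.175, 0.00718 and -0.265 over 2190 features), so numbers did not pair animals. The block drops 4 dpi replicate 4, which has no partner. With the replicate number as a block, the differences were -0.63 for moesin, -0.43 for ezrin and -0.16 for acidic calponin, 0 linkers were called lower, and 6 of all features were called lower. Without that array and with no block the differences were the same and 15 were called, in place of 48.

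Over all features, the 193 called upregulated at 1 dpi became 112 with 0.7 on every array, 95 with a limit of 1, 88 with both times in 1 fit, which holds only features tested at both, and 121 without replicate 2. At 4 dpi 84 became 35 with 0.7 on every array, 151 with no limit and 46 with a limit of 1. The 48 called lower became 26 with values on all 7 arrays, 18 and 103 at an adjusted p of 0.02 and 0.1, 96 with array weights, 7 and 15 without replicates 1 and 2 of 1 dpi, and 24 and 15 without replicates 1 and 4 of 4 dpi. Of the 14 other clones, 12 called at 1 dpi became 6 of 8 in that fit, and 6 called at 4 dpi became 2 with 0.7 on every array.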
